A study of Mus musculus with 6 samples.

Results

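Skeletal muscle genes were examined in whole bone marrow to read the level of muscle RNA in each sample and whether it differed with treatment. The set held 35 genes of contractile fibres, chosen by name from what they do in muscle, out of 18193 genes with a probe set of their own on the array. Each gene was read from 1 probe set, the one with the highest mean over the 6 arrays among those annotated to that gene alone. Marrow came from 3 mice given NOX-A12 and from 3 untreated mice. All were SCID/Bg animals, in which the scid mutation prevents the formation of mature T and B cells, and each mouse had 1 Affymetrix Mouse Genome 430 2.0 array. NOX-A12 is a mirror-image RNA aptamer that binds the chemokine CXCL12. The labels state no age, sex, dose or schedule, nor how the marrow was taken from the bone. Values are the deposited probe-set intensities, and the number of arrays limits their precision. In whole marrow, fewer cells of a type and less RNA per cell cannot be told apart.

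Muscle fibres contract when myosin heads of the thick filament pull on actin of the thin filament. The troponins and tropomyosin of the thin filament switch this on when calcium leaves the sarcoplasmic reticulum, and creatine kinase, glycogen breakdown and myoglobin supply energy and oxygen. Messengers of these proteins are among the most abundant in muscle tissue and are largely restricted to it, and muscle surrounds the limb bones that hold marrow. Several members have near relatives or other sites of expression: Tpm2 is also made by smooth muscle, and the fast myosin heavy chain genes are very similar in sequence.

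The samples carried the markers of marrow. S100a8, a calcium-binding protein gene of neutrophils, had intensities of 16519 to 16684 in NOX-A12 mice and of 16433 to 16790 in untreated mice. All 8 neutrophil genes and 5 of 6 measured erythroid genes lay above the median of all probe sets, an intensity of 44.6. Slc4a1, the anion exchanger gene of red cells, had 8703 to 9665 in NOX-A12 and 8426 to 10086 in untreated mice. Array medians were 44.8 to 45.6. Untreated mouse 3 stood apart. The correlation of its array with each other array, taken across probe sets that are not independent, was 0.982 to 0.985. Each of the other arrays reached 0.993 to 0.994 with the array most like it. For untreated mouse 3, a total of 419 probe sets lay over 2-fold below the remaining arrays, while any other mouse had 0 to 5 such probe sets. Changes and list medians that move with this mouse are given with and without it.

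Most muscle genes were dim. By their mean over the 6 mice, 25 of the 35 genes (71.4%) did not rise above the median of all probe sets, against 39.5% of all genes. Of the 25, Myh1, Tnnc1 and Ckm exceeded that median in at least 1 mouse. Of 19 measured genes of unrelated tissues, such as germ cell, eye and hypothalamus genes, 16 (84.2%) did not rise above it. The genes are called by their tissue only, and whether muscle was carried over with the marrow was not tested. The brightness of different probe sets does not rank transcripts by amount, so these shares describe the array signal only. Intensities of the muscle genes summed to 1748, 1663 and 1850 in NOX-A12 mice 1 to 3. In untreated mice 1 to 3 they summed to 1716, 1767 and 2316. The sums overlapped between the groups, and untreated mouse 3 was the highest of all. Of its 2316, Myh1 made up 355. Tpm2 made up 523 and was bright in the other mice as well, at 369 to 495. Without Myh1 the sums were 1651 to 1825 in NOX-A12 and 1707 to 1961 in untreated mice.

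**Figure D1:**
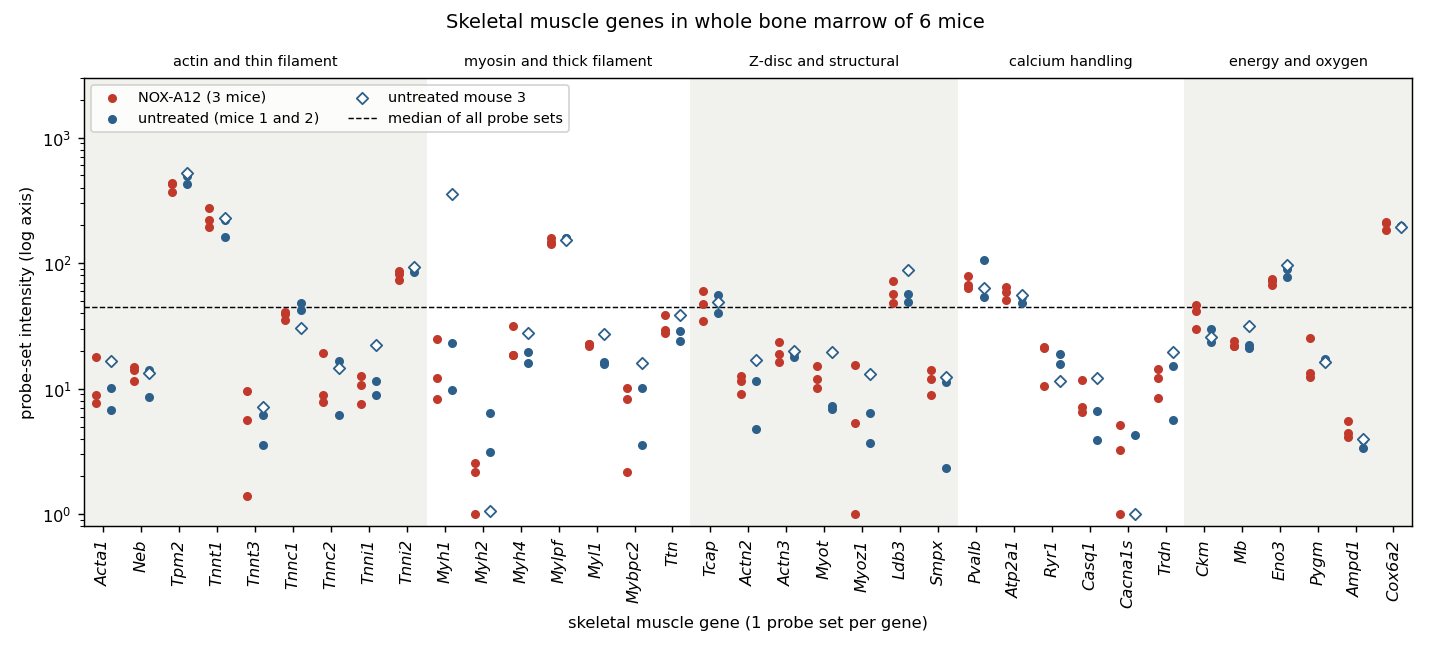
Intensity of each of the 35 muscle genes in each mouse on a log axis, with 3 NOX-A12 mice to the left and 3 untreated mice to the right of each gene's place, and untreated mouse 3 as an open diamond. The dashed line is the median of all probe sets (44.6); 25 genes have a mean that does not exceed it, and Myh1 in untreated mouse 3 is the point that stands alone at 355.

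Among thin filament genes, Acta1, the gene of skeletal muscle actin and one of the most abundant messengers of muscle, was dim throughout. Its intensities were 8.90, 7.72 and 17.9 in NOX-A12 mice and 6.72, 10.2 and 16.7 in untreated mice. Mouse 3 of each group gave the higher values, and the groups overlapped. Neb, which encodes the ruler protein nebulin, stayed between 11.5 and 14.9 in NOX-A12 and between 8.56 and 14.0 in untreated mice. Tnnt3, Tnnc2 and Tnni2 encode the fast-fibre troponins T, C and I. Tnnt3 did not exceed 9.61 in any mouse and Tnnc2 did not exceed 19.2. Tnni2 was brighter, at 86.2, 72.7 and 82.4 in NOX-A12 mice and 85.4, 92.3 and 92.6 in untreated mice, but only at a probe set of the type that can bind related sequences. Its other probe sets gave 17.6 to 33.7 and 1.00 to 2.65 over the 6 mice. Of the slow-fibre troponins, Tnni1 and Tnnc1 stayed between 7.57 and 48.4, while Tnnt1 was clearly above the array median. Tnnt1 read 193, 220 and 274 in NOX-A12 and 161, 221 and 228 in untreated mice, with overlapping groups. Tpm2, the tropomyosin gene that smooth muscle also uses, was the brightest member. It read 431, 369 and 425 in NOX-A12 mice and 428, 495 and 523 in untreated mice. NOX-A12 mouse 1 lay just above untreated mouse 1, so the groups overlapped. The other Tpm2 probe sets were dimmer, at 70.7 to 77.6, 36.5 to 97.9 and 27.1 to 62.9 over the 6 mice.

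Thick filament genes were dim except Mylpf in all mice and Myh1 in a single mouse. Mylpf, the fast-fibre regulatory light chain gene, read 141, 148 and 157 in NOX-A12 and 159, 157 and 154 in untreated mice, a narrow range in which the groups overlapped. Myl1, the essential light chain gene, stayed at 21.9 to 22.7 in NOX-A12 and at 15.6 to 27.3 in untreated mice. Mybpc2, a myosin-binding protein gene, and Ttn, which encodes the giant spring protein titin, did not exceed 16.01 and 38.9 in any mouse.

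Myh1, the heavy chain gene of fast IIx fibres, was high in untreated mouse 3 and dim in the other 5 mice. It read 8.30, 12.2 and 24.95 in NOX-A12 mice and 9.80, 22.9 and 355 in untreated mice. The level in untreated mouse 3 lay 3.18 above the next mouse on the log2(intensity + 16) scale. Myh1 was singled out after its values were seen. A further Myh1 probe set, of the type that can bind related sequences, gave 284 in untreated mouse 3. The other mice read 7.11 to 19.5 there, a gap of 3.08. These were the largest and the next largest gaps of any of the 45037 probe sets on that array, and the following one was 1.35. On the array of NOX-A12 mouse 2 the largest gap was wider, 6.42 for a Sco1 probe set. On the other arrays the largest gap was 0.78 to 1.53. The remaining Myh1 probe set, annotated to the same sequence record as the first, did not follow, at 8.50 in untreated mouse 3 and 2.53 to 13.4 in the others. No other muscle gene lay over 2-fold above or below the remaining 5 mice in any mouse on that scale. The added 16 narrows gaps between dim values, so for dim genes this says little. Smpx, for example, read 2.33 in untreated mouse 2 and 8.87 to 14.2 in the other mice. The neighbouring fast myosin genes were flat: Myh2 read 1.07 in untreated mouse 3 and 1.00 to 6.36 in the others, and Myh4 read 27.7 against 15.9 to 31.4. In untreated mouse 3, Acta1, Ckm, Mylpf, Tnnt3 and Tnnc2 lay within the range of the other 5 mice. Tnni2, Myl1, Mybpc2, Casq1 and Eno3 lay above it, none of them by over 2-fold. Of the 35 genes, Myh1 among them, 13 lay above that range, 21 inside it and only Tnnc1 below it.

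**Figure D2:**
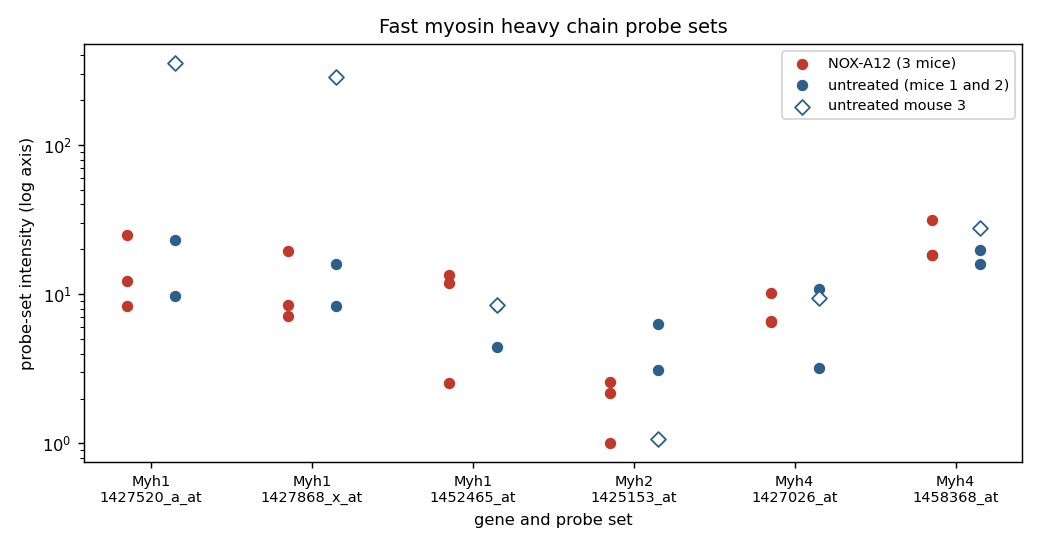
Intensity on a log axis of every probe set annotated to Myh1, Myh2 or Myh4, with NOX-A12 mice to the left and untreated mice to the right, and untreated mouse 3 as an open diamond. Untreated mouse 3 reads 355 and 284 at a pair of Myh1 probe sets and 8.50 at the other, while at the Myh2 and Myh4 probe sets it lies within the range of the other mice.

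These 3 genes lie beside each other on chromosome 11, Myh1 between Myh2 and Myh4. Their promoters are shown as background on these neighbours. They are reference sequence, not read from these mice, and a link to the Myh1 values of untreated mouse 3 was not tested. Each run holds 300 bases around the start of the gene, most of them upstream, from RefSeq on GRCm38.p6, plus strand: Myh1 at chr11:67199852-67200151, Myh2 at chr11:67170777-67171076 and Myh4 at chr11:67237562-67237861. Capitals mark the E-box CANNTG bound by myogenic factors, the TATA box TATAAA, the CArG box of serum response factor and the MEF2 box, each searched on both strands.
Myh1: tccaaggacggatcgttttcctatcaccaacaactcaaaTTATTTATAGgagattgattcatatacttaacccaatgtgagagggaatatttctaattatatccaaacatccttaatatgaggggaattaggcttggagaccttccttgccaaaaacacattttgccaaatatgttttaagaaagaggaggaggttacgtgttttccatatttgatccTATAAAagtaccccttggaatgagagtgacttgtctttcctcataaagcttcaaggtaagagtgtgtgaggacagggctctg
Myh2: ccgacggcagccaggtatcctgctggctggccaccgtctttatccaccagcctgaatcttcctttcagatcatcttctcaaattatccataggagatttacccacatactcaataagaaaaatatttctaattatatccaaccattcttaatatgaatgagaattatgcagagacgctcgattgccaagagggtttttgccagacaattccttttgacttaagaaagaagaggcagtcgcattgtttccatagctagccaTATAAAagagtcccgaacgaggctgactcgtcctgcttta
Myh4: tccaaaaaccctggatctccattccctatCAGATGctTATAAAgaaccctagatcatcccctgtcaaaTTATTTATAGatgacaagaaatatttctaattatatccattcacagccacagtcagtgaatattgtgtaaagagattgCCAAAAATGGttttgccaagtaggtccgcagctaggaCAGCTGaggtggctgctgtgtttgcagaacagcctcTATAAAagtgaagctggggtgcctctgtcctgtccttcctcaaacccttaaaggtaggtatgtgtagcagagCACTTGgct
The Myh1 window held 1 MEF2 box and 2 TATA boxes, 1 of them inside the MEF2 box. The Myh2 window held 1 TATA box, and the Myh4 window held 3 E-boxes, 3 TATA boxes, 1 of them inside its MEF2 box, 1 CArG box and 1 MEF2 box. Over the 25 muscle genes with a listed promoter, the CArG box was found in 3 (12%), against 1.57% of 27025 promoters, and the MEF2 box in 4 (16%), against 3.26%. The TATA box was found in 6 (24%) against 14.2%, and the E-box in 19 (76%) against 72.1%. A match of letters is a description and not a site of binding.

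Genes of the Z-disc, which anchors the thin filaments, were low and variable. Ldb3, a Z-disc scaffold gene, read 57.3, 48.6 and 71.5 in NOX-A12 and 56.8, 49.3 and 87.6 in untreated mice. Tcap, which encodes the titin cap, read 60.5, 34.5 and 47.4 in NOX-A12 and 55.5, 39.9 and 48.8 in untreated mice. For both genes the groups overlapped, and the highest Ldb3 value was that of untreated mouse 3. The actinin genes Actn2 and Actn3, the Z-disc genes Myot and Myoz1, and Smpx did not exceed 23.5 in any mouse.

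Genes of calcium handling were highest in different mice, Casq1 and Trdn among them in untreated mouse 3. Pvalb, the calcium buffer of fast fibres, read 79.1, 67.1 and 63.8 in NOX-A12 mice and 106, 53.3 and 63.2 in untreated mice, so its highest and lowest values were both untreated. Atp2a1, the calcium pump gene of fast fibres, read 64.6, 50.6 and 59.2 in NOX-A12 and 53.6, 47.9 and 55.8 in untreated mice. The release channel gene Ryr1, the calcium store gene Casq1, the voltage sensor gene Cacna1s and Trdn, which encodes triadin, did not exceed 21.5. Cacna1s stood at 1.00, a value shared by 781 to 861 probe sets of each array, in NOX-A12 mouse 3 and in untreated mice 2 and 3.

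Genes of energy supply held the members whose groups did not overlap. Ckm, the creatine kinase gene of muscle, read 30.1, 41.9 and 46.3 in NOX-A12 mice and 29.9, 23.5 and 26.0 in untreated mice. All NOX-A12 mice were higher, the lowest of them by a margin smaller than the spread within either group, and the gene's mean lay below the array median. Eno3, the muscle enolase gene, read 71.7, 75.1 and 67.2 in NOX-A12 mice and 77.1, 89.2 and 95.7 in untreated mice, all NOX-A12 mice lower. Ampd1, an AMP deaminase gene, read 5.49, 4.13 and 4.40 in NOX-A12 and 3.38, 3.88 and 3.98 in untreated mice, close to the lowest values of the arrays. Cox6a2, a cytochrome oxidase subunit gene of muscle and heart, read 211, 213 and 182 in NOX-A12 and 198, 198 and 194 in untreated mice, with overlap. The myoglobin gene Mb and the glycogen phosphorylase gene Pygm did not exceed 31.5.

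The muscle level of each mouse was taken as the mean deviation of the 35 genes from their 6-mouse means on the log2(intensity + 16) scale. It was -0.03, -0.06 and 0.04 in NOX-A12 mice 1 to 3. It was -0.06, -0.09 and 0.20 in untreated mice 1 to 3. Untreated mouse 3 was the highest, and NOX-A12 mouse 3 was the next. Without Myh1 its level was 0.12, against -0.08 to 0.05 in the others. In untreated mouse 3, 13 of the 35 genes (37.1%) lay above all 5 other mice and 1 (2.86%), Tnnc1, lay below them. Among all genes on that array the shares were 28.3% above and 20.9% below, and among genes not above the array median they were 26.4% and 12.6%. NOX-A12 mouse 3 was the highest mouse for 9 of the 35 genes (25.7%, against 12.95% of all genes): Acta1, Neb, Tnnt1, Tnnc2, Myh4, Actn3, Smpx, Ryr1 and Ckm. In untreated mouse 3, Myh1 apart, the genes above all other mice were Tpm2, Tnni1, Tnni2, Myl1, Mybpc2, Actn2, Myot, Ldb3, Casq1, Trdn, Mb and Eno3.

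Other lists of genes were set beside this level. For 46 measured genes of a further skeletal muscle list, which holds no member, the level was -0.01 to 0.02 in NOX-A12 and -0.04 to 0.02 in untreated mice, with untreated mouse 3 at 0.02. The brightest of them were Myom1, Nrap, Hrc, Tmod4, Jph2 and Csrp3. Myom1, a gene of the M-band that links thick filaments, read 95.2, 87.5 and 98.2 in NOX-A12 and 68.6, 145 and 145 in untreated mice, so untreated mouse 3 was matched by untreated mouse 2. Satellite cell and myoblast genes, with Cdh15 the brightest, stood at 0.14 in untreated mouse 3 and at -0.11 to 0.03 in the other mice. The muscle lineage genes Pax7, Myod1 and Myf5 did not exceed 12.3 in any mouse. In untreated mouse 3, Chrna1 (47.5 against 24.7 to 34.4), Musk, Megf10, Myog and Calcr lay above all other mice. Pax7 lay below them, and Cdh15, Myod1, Myf5 and Mymk lay within their range. Lists of other tissues went both ways in untreated mouse 3. By the list mean it was the highest mouse for 8 tendon genes (0.18), 8 cartilage genes (0.23) and 8 measured adipocyte genes (0.28). By this mean it was the lowest for 4 measured Schwann cell genes (-0.09) and 10 smooth muscle genes (-0.08), and it stood at 0.00 for 10 cardiac genes. Of the Schwann cell genes only Mag, at 4.31 against 14.6 to 21.8, lay below all other mice. Sox10 and Cnp lay above them and Mbp within their range. Of the smooth muscle genes, Acta2 and Tagln lay below all other mice, Actg2 lay above them and the rest lay within their range. For the smooth muscle list NOX-A12 mouse 1 was close, at -0.06. The summed adipocyte intensity was 4830 to 6062 in NOX-A12 and 5593 to 8206 in untreated mice. Genes of unrelated tissues stood at -0.01 there. By their list means, erythroid and neutrophil genes stood lower than in any other mouse, at -0.13 and -0.12. Of the neutrophil genes, Ltf, Mpo, Elane and Prtn3 lay below all other mice, while S100a8, S100a9, Ngp and Camp lay within their range. The measured erythroid genes lay below all other mice except Hba-a1, which lay within their range. The part of these tissues in the muscle level was not tested.

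**Figure D3:**
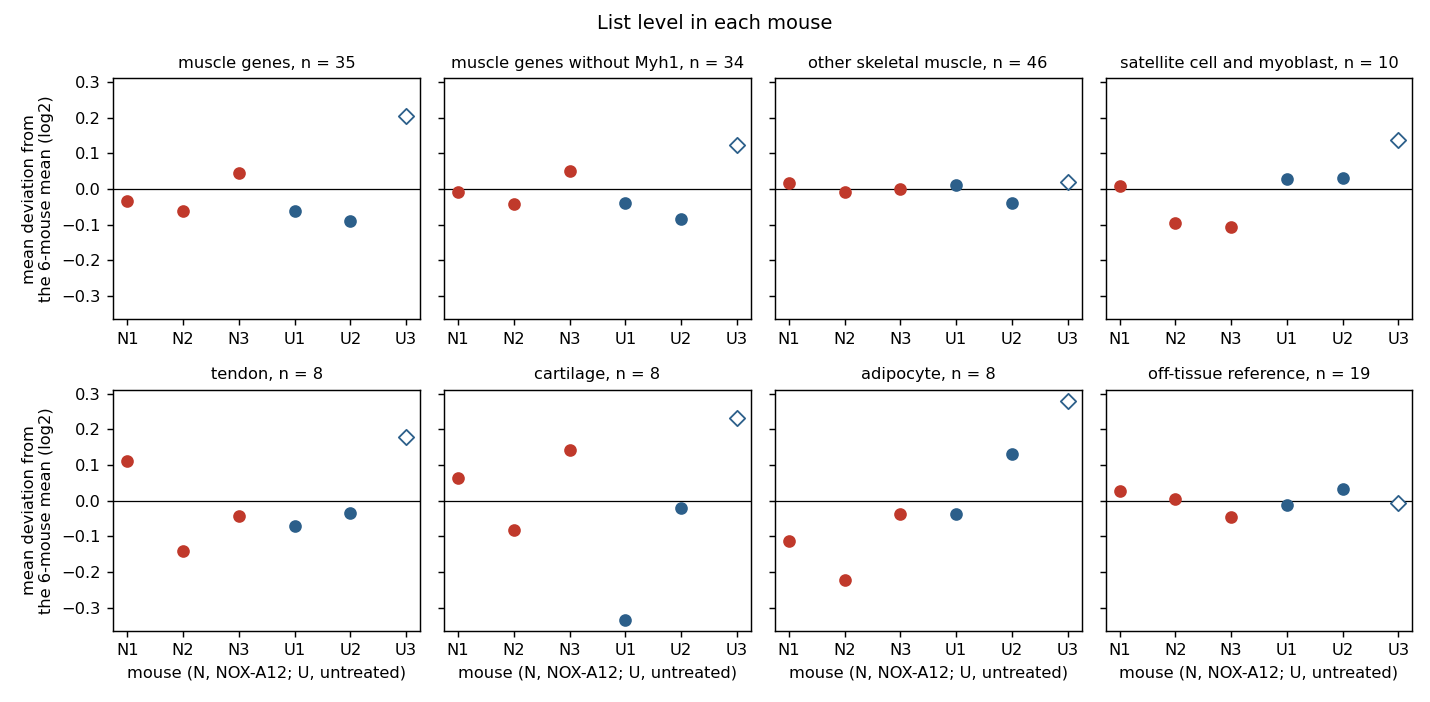
Mean deviation of each gene list from its 6-mouse mean (log2(intensity + 16) scale) in NOX-A12 mice (N1 to N3) and untreated mice (U1 to U3, with U3 as an open diamond). The 35 muscle genes stand at 0.20 in U3 and at 0.12 without Myh1, while the 46 further skeletal muscle genes stand at 0.02.

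The comparison of NOX-A12 with untreated mice found no muscle gene that changed. With limma and Benjamini-Hochberg adjustment over 45037 probe sets, 0 of the 35 genes passed an adjusted p of 0.05 in either direction, as did 0% of all probe sets, and the lowest adjusted p among the 35 was 0.967. At an unadjusted p under 0.05, 1 gene was higher in NOX-A12 mice (2.86%, against 1.88% of all probe sets) and 0 were lower (against 3.10%). The gene was Ckm, with a log2 change of 0.38 ± 0.13 (SE, limma adjusted p = 0.967). Its other probe set, at 10.9 to 17.9 in all mice, gave -0.05 ± 0.11. The groups did not overlap for 2 genes higher in NOX-A12 mice, Ckm and Ampd1 (5.71%, against 4% of all probe sets), and for 1 lower, Eno3 (2.86%, against 5.85%). These shares lie near those of the whole array.

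Changes of single genes were small and went both ways. Of the 35 genes, 18 were lower and 17 higher in NOX-A12 mice (51.4% lower, against 52.8% of all genes), and their median log2 change was -0.01, as was that of all genes. Apart from Myh1, changes ran from -0.24 for Eno3 (95% interval -0.48 to 0.00) to 0.38 for Ckm (0.06 to 0.69). Tpm2 gave -0.23 ± 0.11 (SE), with an interval of -0.50 to 0.04. Acta1 gave 0.01 ± 0.18 (SE), and its interval of -0.42 to 0.45 spans changes in both directions. Intervals were narrowest for Ampd1, at 0.07 (-0.13 to 0.27), and Mylpf, at -0.07 (-0.27 to 0.14), and Cox6a2 gave 0.03 (-0.19 to 0.26). Myh1 gave -1.24 ± 0.91 (SE), with an interval of -3.38 to 0.89, and -0.06 ± 0.27 (SE) without untreated mouse 3. Without that mouse 11 of the 35 genes were lower, and the median change was 0.03.

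**Figure D4:**
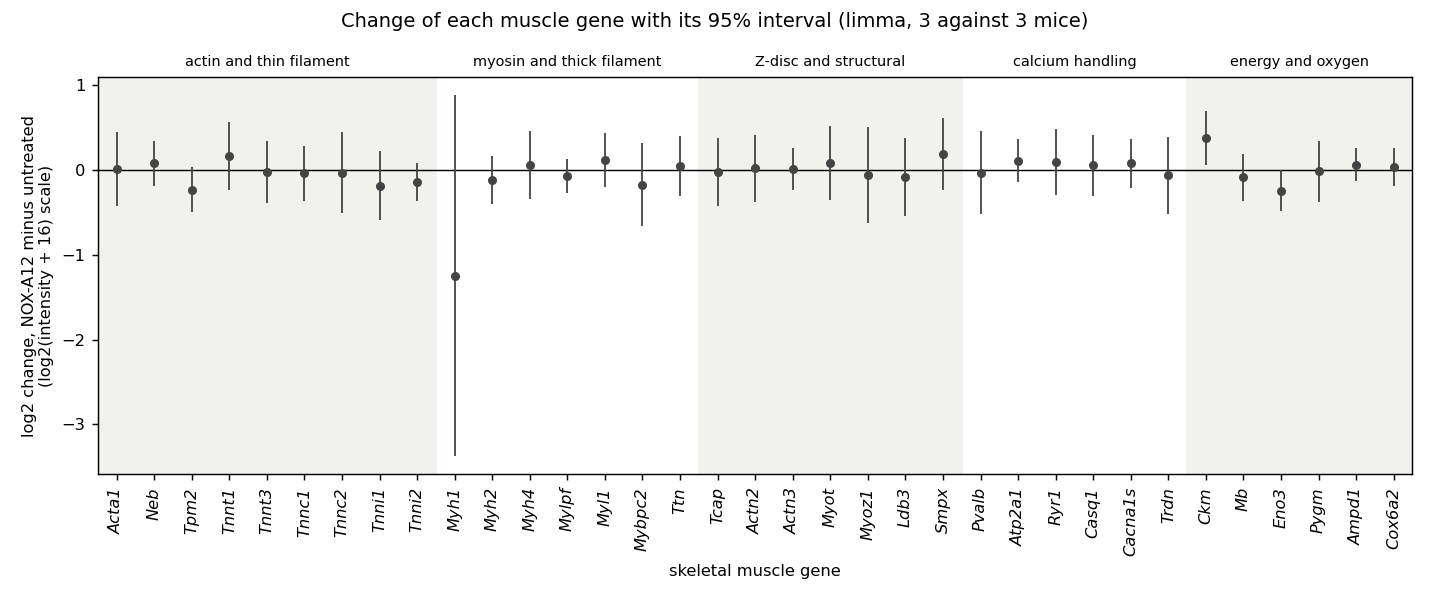
Change of each muscle gene on the log2(intensity + 16) scale, positive where NOX-A12 mice were higher, with the 95% interval of the limma fit (3 against 3 mice). All intervals but that of Ckm include 0, and the interval of Myh1, from -3.38 to 0.89, is the widest.

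Groups of members were alike in this. The median log2 change was -0.03 for 9 thin filament genes, -0.07 for 7 thick filament genes, 0.02 for 7 Z-disc and structural genes, 0.07 for 6 calcium genes and 0.01 for 6 energy genes. The 46 further skeletal muscle genes had a median of -0.01, with 25 lower and 21 higher and 0 past the adjusted threshold in limma. At an unadjusted p under 0.05, 2 of them were higher and 0 lower. The largest change among the brightest of them was that of Tmod4, which encodes a protein capping thin filaments, at 0.39 ± 0.13 (SE, limma adjusted p = 0.967). It read 97.0, 89.2 and 65.8 in NOX-A12 mice and 61.2, 58.8 and 58.2 in untreated mice. Medians were -0.11 for satellite cell and myoblast, -0.01 for cardiac, 0.07 for smooth muscle, -0.11 for tendon, 0.05 for cartilage, -0.03 for Schwann cell, -0.23 for adipocyte, 0.02 for erythroid, 0.02 for neutrophil and -0.02 for unrelated tissue genes, with 0 members of these lists past the adjusted threshold. Without untreated mouse 3 the sign turned for tendon (0.02), smooth muscle (-0.01), erythroid (-0.06) and neutrophil genes (-0.02), and the median was 0.13 for cartilage, -0.03 for cardiac and -0.16 for adipocyte genes. At an unadjusted p under 0.05, with 1.88% of all probe sets higher and 3.10% lower, 1 cartilage and 1 unrelated gene were higher, and 1 satellite cell, 1 cardiac, 3 adipocyte and 2 unrelated genes were lower. Among the brightest genes of these lists, Myl4, an atrial myosin light chain gene, read 56.9, 50.6 and 42.6 in NOX-A12 mice and 76.2, 64.1 and 80.5 in untreated mice, and its log2 change was -0.44 ± 0.12 (SE, limma adjusted p = 0.926). Fabp4, a fatty acid carrier gene of adipocytes, gave -0.52 ± 0.21 (SE), and Retn gave -0.01. The smooth muscle genes Acta2 and Mylk gave 0.34 and -0.34. Changes were -0.25 for Chrna1, -0.05 for Mybpc3, 0.23 for Comp, 0.08 for Fmod, -0.17 for Col11a1, 0.03 for Cnmd, -0.04 for Mbp, -0.23 for Cnp, 0.05 for Alas2, -0.03 for S100a9, 0.20 for Oxt and 0.21 for Hcrt, and none of these passed the adjusted threshold.

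Probe sets of one gene often disagreed in sign. Among the 12 members with several probe sets, 9 of the 25 other probe sets had the same sign of change as the one used. Cox6a2 gave 0.03 at the probe set used and -0.46 at its dimmer one. The spread between mice of one group was also wide relative to these changes. The median residual SD was 0.21 for the 35 genes, against 0.18 for all genes not above the array median and 0.13 for those above it.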

How the data were processed

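Total RNA of whole bone marrow was labelled with biotin and hybridised to Mouse Genome 430 2.0 arrays, per the labels' protocols. The deposited values were 1 table of probe-set intensity values on a linear scale, from 0.66 to 16790. How they were summarised and normalised is not given in the sources used here. Log2 medians of the arrays differed by 0.0193, so no further normalization was applied. Groups and mouse numbers came from the sample titles. The numbers name different animals, so p-values measure the spread between animals.

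Probe sets were named through the platform annotation: of 45037, 34945 had 1 symbol, 932 had several and 9160 had none. All 35 members had a probe set and an entry in the RefSeq gene table. Each probe set was fitted on log2(intensity + 16) with limma 3.58.1 in R 4.3.3, two-sided, with no covariate. An offset understates changes of dim probe sets. The test had 7.24 degrees of freedom. The members and lists were chosen with earlier results of these data known, so no test was made over a list. Values in every mouse are given for the 10 members with the highest mean, the 6 with the widest range among those above the array median and those whose groups do not overlap. The 6 brightest genes of the further skeletal muscle list and the 2 brightest of each other list are named. Same-numbered mice did not deviate together (correlations of -0.09, 0.05 and 0.03), so no block was used. Genes without a probe set of 1 symbol were not analysed here.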

Additional observations from a re-analysis of the deposited data

How the results depend on the processing

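The alternatives were quantile normalization, an offset of 1 or 64, only probe sets above the array median, robust trended variances and the replicate block. Averaging all probe sets of a gene and leaving out each mouse were further alternatives. Under each alternative 0 of the muscle genes tested passed the threshold, and the lowest limma adjusted p of a member was 0.620. The count over all probe sets was also 0 under each alternative but averaging, for which none was made. The replicate block left the median change at -0.01 and changed no call. The number of muscle genes lower in NOX-A12 mice was 7 of 10 with the filter, which tests fewer genes, and 11 to 22 of 35 without single mice, the lowest without untreated mouse 3. The mean change was -0.03, ran from -0.09 to 0.06 without single mice, and was 0.00 without Myh1, an alternative chosen after seeing the data. Myh1 gave -1.62 with an offset of 1 and -0.82 with 64. Of 430 values of single genes under alternatives, 385 kept their sign and 45 did not, and the cause was not tested. Part of the 385 was fixed in advance. The filter, the robust trended variances and the replicate block leave the change of each gene as it was. Averaging does the same for genes with a single probe set. When all probe sets of a gene were averaged, the sign turned for Ttn (-0.11), Myoz1 (0.014), Ryr1 (-0.013), Trdn (0.038) and Cox6a2 (-0.22). Without single mice the change ranged from -0.15 to 0.15 for Acta1, -0.011 to 0.13 for Neb, -0.17 to 0.067 for Tnnc1, -0.096 to 0.18 for Myh4, -0.17 to 0.13 for Tcap, -0.062 to 0.081 for Actn3, -0.026 to 0.29 for Myot, -0.20 to 0.21 for Pvalb, -0.056 to 0.20 for Casq1, -0.21 to 0.078 for Tnnc2, -0.056 to 0.17 for Ttn, -0.16 to 0.17 for Actn2, -0.014 to 0.30 for Smpx, -0.15 to 0.12 for Tnnt3, -0.31 to 0.0016 for Tnni1, -0.30 to 0.15 for Myoz1, -0.22 to 0.11 for Ldb3, -0.27 to 0.090 for Trdn, -0.15 to 0.027 for Mb, -0.18 to 0.086 for Pygm and -0.0039 to 0.099 for Cox6a2. Over all alternatives the median change ran from -0.29 to 0.02 for tendon, -0.01 to 0.12 for smooth muscle, -0.12 to 0.13 for cartilage, -0.43 to -0.16 for adipocyte, -0.44 to 0.06 for cardiac, -0.24 to 0.00 for satellite cell, -0.09 to 0.20 for unrelated tissue, -0.04 to 0.05 for further skeletal muscle, -0.07 to 0.02 for Schwann cell, -0.06 to 0.08 for erythroid and -0.02 to 0.04 for neutrophil genes. Dim signals limit these values: 25 of the 35 genes did not, by their mean, exceed the median of all probe sets.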
